A study of Mus musculus with 28 samples.

Results

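The respiratory genes described here encode the nuclear subunits of complex III, complex IV and ATP synthase of the mitochondrial inner membrane, together with the electron carriers between them. They were chosen by name, as every gene whose annotated symbol started with Uqcr, Cox4, Cox5, Cox6, Cox7, Cox8 or Atp5, plus Cyc1 and Cycs. The rule found 44 genes among the 18193 genes that the arrays named, with 9 in complex III, 17 in complex IV, 17 in ATP synthase and Cycs, which encodes the soluble cytochrome c. They were read by 87 probe sets. The 17 genes with 1 probe set were read by it, and for each of the 27 genes with several the probe set whose mean over the 28 arrays was highest stood for the gene. Cox7b met the rule by its name but had no probe set with that single symbol, and was not analysed here.

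Total RNA from frozen mouse heart was measured on 28 biotin-labelled 1-colour arrays, 1 per animal. There were 4 groups of 7, which were del337TR animals treated with WY14643, untreated del337TR animals, control animals treated with WY14643, and untreated controls. WY14643 is a synthetic activator of PPARalpha, a nuclear receptor that turns on fatty acid oxidation. The del337TR animals carry a thyroid hormone receptor with a deletion, a model of resistance to thyroid hormone. The sources used here do not give how the mutant receptor is expressed, the age of the animals, the genetic background of the controls, or the dose and length of treatment.

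Complex III takes electrons from ubiquinol and passes them through cytochrome c1 to soluble cytochrome c, and complex IV passes them on to oxygen. Both pump protons, and ATP synthase lets the protons flow back and makes ATP. The beating heart depends on this chain, and its genes are among the most strongly expressed nuclear genes of the myocyte. Several small subunits of complex IV exist as pairs of isoforms, one favoured in heart and skeletal muscle (Cox6a2, Cox7a1 and Cox8b) and one found in most tissues (Cox6a1, Cox7a2 and Cox8a). Thyroid hormone and PPARalpha are both known regulators of mitochondrial genes. Comparing the 4 groups therefore asks how the chain's transcripts stood with the mutant receptor, with the activator and with both.

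The promoters of 6 complex IV subunit genes are shown because Cox8a, Cox6a1, Cox7a1 and Cox6b2 were the complex IV genes with an unadjusted p under 0.05 for WY14643 in controls or for strain, while Cox8b and Cox7a2 are the paired isoforms of Cox8a and Cox7a1. Each window holds the 250 bases before the start site in RefSeq's table for GRCm38.p6, on the strand of the gene. The windows lie at chr19:7217617-7217866, minus strand for Cox8a, chr7:140900447-140900696, minus strand for Cox8b, chr5:115348959-115349208, minus strand for Cox6a1, chr7:30183921-30184170, plus strand for Cox7a1, chr9:79759854-79760103, minus strand for Cox7a2, and chr7:4753095-4753344, minus strand for Cox6b2. Capitals mark matches on either strand to the NRF1 palindrome (GCGCA, any base, then GCGC), the GABP motif CCGGAAG, the nuclear receptor motif AGGTCA with its longer form AAGGTCA, the Sp1 motif GGGCGG and the E-box CAGCTG.
Cox8a: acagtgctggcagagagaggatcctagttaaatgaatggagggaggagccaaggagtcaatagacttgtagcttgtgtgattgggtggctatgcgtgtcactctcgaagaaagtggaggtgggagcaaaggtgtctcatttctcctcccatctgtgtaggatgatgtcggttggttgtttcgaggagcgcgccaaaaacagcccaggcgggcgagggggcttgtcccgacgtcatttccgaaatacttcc
Cox8b: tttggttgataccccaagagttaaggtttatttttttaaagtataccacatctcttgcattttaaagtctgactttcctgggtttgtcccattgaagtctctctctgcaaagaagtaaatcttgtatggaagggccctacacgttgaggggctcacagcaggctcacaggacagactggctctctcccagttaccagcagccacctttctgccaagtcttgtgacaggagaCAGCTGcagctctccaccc
Cox6a1: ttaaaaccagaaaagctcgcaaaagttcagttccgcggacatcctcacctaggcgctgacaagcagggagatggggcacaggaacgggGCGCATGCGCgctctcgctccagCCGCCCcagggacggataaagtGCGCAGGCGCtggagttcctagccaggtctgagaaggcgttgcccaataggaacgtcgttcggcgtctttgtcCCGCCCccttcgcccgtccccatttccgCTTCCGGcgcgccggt
Cox7a1: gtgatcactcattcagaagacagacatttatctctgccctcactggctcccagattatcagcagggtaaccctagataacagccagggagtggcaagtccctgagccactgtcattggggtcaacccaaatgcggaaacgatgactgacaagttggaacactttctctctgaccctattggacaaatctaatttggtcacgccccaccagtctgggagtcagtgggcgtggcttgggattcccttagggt
Cox7a2: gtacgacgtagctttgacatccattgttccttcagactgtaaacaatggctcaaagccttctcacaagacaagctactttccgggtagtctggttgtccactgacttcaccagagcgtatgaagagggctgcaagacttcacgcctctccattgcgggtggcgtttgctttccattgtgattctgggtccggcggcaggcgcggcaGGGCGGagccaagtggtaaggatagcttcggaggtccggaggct
Cox6b2: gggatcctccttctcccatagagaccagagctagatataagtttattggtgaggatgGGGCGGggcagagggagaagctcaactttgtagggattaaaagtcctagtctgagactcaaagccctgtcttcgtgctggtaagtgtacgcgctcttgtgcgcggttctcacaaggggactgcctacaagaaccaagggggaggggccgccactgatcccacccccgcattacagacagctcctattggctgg

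The Cox6a1 window held the NRF1 palindrome at 162 and at 117 bases before the start, the Sp1 motif at 139 and at 44 bases, and the GABP motif at 16 bases. The Cox7a2 window held the Sp1 motif, as did that of Cox6b2, and the Cox8b window held the E-box. The windows of Cox8a and Cox7a1 held no match to these letters. RefSeq's table had a window for 33 of the 44 members, and the first listed window was used for the 3 with several. NRF1 and GABP are known activators of respiratory genes. The NRF1 palindrome was found in 4 of the 33 windows (12.1%), against 3.86% of all 27025 promoters, and was held by Cox6a1, Atp5g2, Atp5h and Atp5k. The GABP motif was found in 7 windows (21.2%), against 7.05% of all promoters. Shares were closer for the Sp1 motif (33.3% of members, 32.9% of all) and for AGGTCA (12.1% of members, 13.8% of all). The longer form AAGGTCA, which overlaps AGGTCA, stood in 2 member windows (6.06%), those of Atp5g3 and Atp5l, against 4.05% of all. The E-box stood in 2 windows, those of Cox8b and Atp5b (6.06%), against 12.8% of all. No member window held, on either strand, the direct repeat of AGGTCA with 1 base between that PPARs bind, the one with 4 bases between that thyroid hormone receptors bind, the long MEF2 consensus or the MEF2 core TAAAAATA. These occurred in 0.037%, 0.011%, 0.144% and 2.48% of all promoters in the order given. A match to letters is a description of the sequence and not a measured site.

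The values were scaled signals, linear and without a unit, and differences are given on the log2 scale as the first group named minus the second. On these arrays the respiratory genes were among the brightest, and 37 of the 44 members lay above the 98th percentile of mean brightness. Uqcrb, a small subunit of complex III, had a mean signal of 15761 over the 28 arrays, and Atp5c1, the gamma subunit that turns inside ATP synthase, one of 14607. The dimmest ATP synthase gene was Atp5e, the epsilon subunit, with a mean of 6990. Cox7a2l, which encodes a factor that joins complexes III and IV into supercomplexes, and Cox8a lay just below the 98th percentile, with means of 3512 and 3207. The other 5 dimmer members were Cox8c (503), Cox4i2 (92.4), Cox7b2 (71.0), Cox7c (49.1) and Cox6b2 (36.9). Cox4i2 is known as an isoform of lung, and Cox8c, Cox7b2 and Cox6b2 are known as isoforms of testis. Cox7c is a subunit of complex IV in all tissues, so its dim reading is noted here as a reading of its 2 probe sets, whose means were 49.1 and 12.1, and not as a level of its mRNA. Signals of different probe sets depend on the probes as well as on the RNA and are not compared as amounts.

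The tissue label was checked against marker genes. All 6 ventricular myocyte markers (Myh6, Myl2, Myl3, Tnni3, Actc1 and Ryr2) lay above the 98th percentile. The 6 skeletal muscle markers summed to between 70.4 and 222 on the arrays. Of the 3 brown adipocyte markers Ucp1, which defines brown fat, had a mean signal of 18.5, Elovl3 one of 66.2 and Cidea one of 1208. Their sum ran from 1067 to 1453 in treated del337TR, 1024 to 1339.7 in untreated del337TR, 1076 to 1986 in treated controls and 1010 to 1566 in untreated controls. Of 6 adipocyte markers 4 were measured, Adipoq, Retn, Cidec and Lep, with mean signals of 69.3, 107, 20.6 and 21.2. Their sum ran from 69.1 to 206 in treated del337TR, 190.0 to 449.5 in untreated del337TR, 153 to 303 in treated controls and 147 to 454 in untreated controls. The atrial markers Myl4, Myl7 and Sln were summed too. Their sum ran from 183 to 33331 in treated del337TR (median 9345) and from 1202 to 31989 in untreated del337TR (median 9478). In treated controls it ran from 182 to 17133 (median 3550), and in untreated controls from 116 to 22427 (median 1760). Of the sex-linked pair, Xist had a higher signal than Eif2s3y on 1 of 7 treated del337TR, 4 of 7 untreated del337TR, 3 of 7 treated control and 2 of 7 untreated control arrays. In whole tissue, fewer cells of a type and less RNA per cell cannot be told apart. Nothing in the labels says more of the animals than their group, and p values measure the spread between these arrays.

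The bright members moved together from array to array. The mean log2 signal of the 37 bright members was 13.41 ± 0.19 in treated del337TR, 13.37 ± 0.11 in untreated del337TR, 13.48 ± 0.11 in treated controls and 13.31 ± 0.16 in untreated controls (SD, n = 7 each). On 15 of the 28 arrays nearly all of the 37 bright members stood on 1 side of their group's means, with at most 3 above on 9 arrays and at least 34 above on 6. All 37 stood above on replicate 4 of treated del337TR, replicate 7 of treated controls and replicate 3 of untreated controls. None stood above on replicate 5 of treated del337TR, replicate 1 of untreated del337TR, or replicates 2 and 6 of untreated controls. In complex III the mean was 13.25 ± 0.17 in treated del337TR, 13.22 ± 0.12 in untreated del337TR, 13.34 ± 0.13 in treated controls and 13.15 ± 0.16 in untreated controls. In complex IV it was 13.52 ± 0.21 in treated del337TR, 13.47 ± 0.12 in untreated del337TR, 13.60 ± 0.13 in treated controls and 13.41 ± 0.16 in untreated controls. In ATP synthase it was 13.41 ± 0.19 in treated del337TR, 13.38 ± 0.10 in untreated del337TR, 13.48 ± 0.10 in treated controls and 13.32 ± 0.16 in untreated controls. All 4 groups overlapped in each complex.

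**Figure D1:**
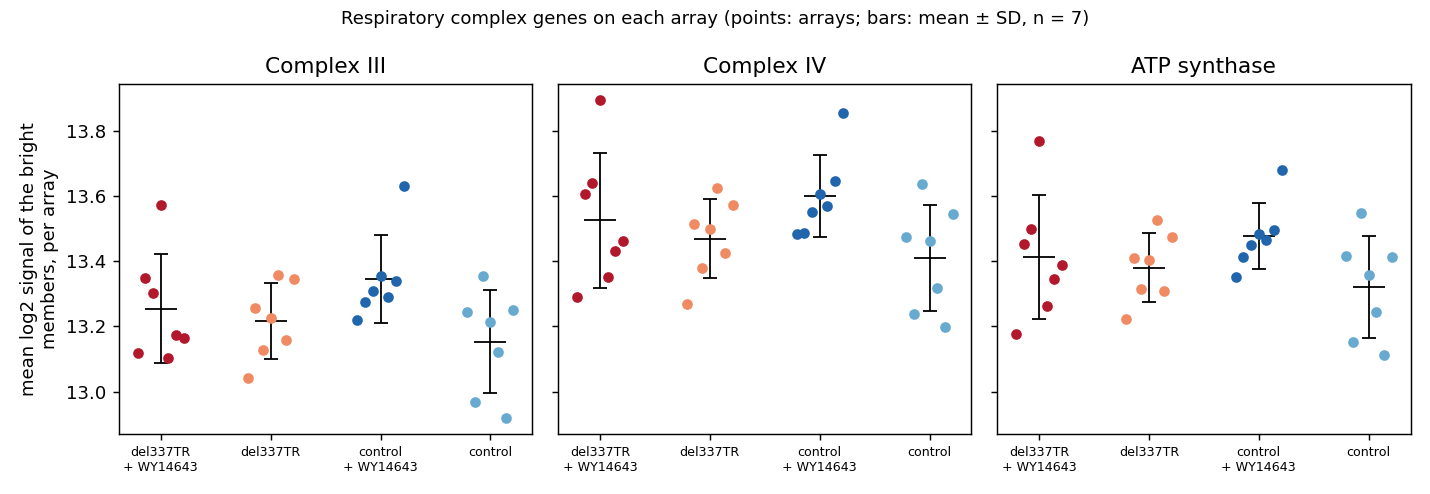
Mean log2 signal of the bright members of complex III, complex IV and ATP synthase (vertical axis) on each of the 28 arrays, by group. Points are arrays and bars are the mean ± SD of 7 arrays. The order of the 4 groups is the same in the 3 panels, with treated controls highest, and every pair of groups overlaps.

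The same movement ran through other bright probe sets. Across the 28 arrays the mean of the bright members and the mean of the 842 other probe sets above the 98th percentile had a Pearson r of 0.93 and a Spearman rho of 0.89 (permutation p = 1e-05 for each, the smallest 100000 permutations can give, and 1e-05 after adjustment over the 2 relations computed). With group means removed r was 0.94 and rho 0.91. Within single groups r ran from 0.73 to 0.99, and without the 2 arrays farthest from the median r was 0.90. The 2 means share an array's hybridisation and scaling. The bright members stood above the other bright probe sets by 0.72 ± 0.07 on the log2 scale in treated del337TR, 0.71 ± 0.04 in untreated del337TR, 0.79 ± 0.08 in treated controls and 0.70 ± 0.06 in untreated controls (SD, n = 7 each). This gap overlapped between all groups.

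**Figure D2:**
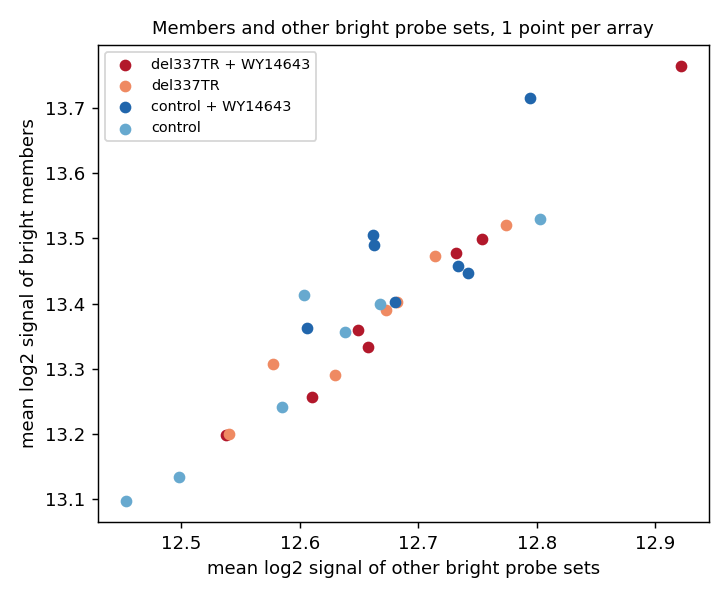
Mean log2 signal of the 37 bright members (vertical axis) against that of the 842 other bright probe sets (horizontal axis), 1 point per array, coloured by group. The 28 arrays lie along 1 line, with r of 0.93, and the groups are mixed along it.

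In controls, WY14643 went with a small upward shift across the members. Of the 44 members 41 had a higher fitted mean in treated controls, with a median log2 difference of 0.16, against -0.03 over all 45037 probe sets, of which 44.6% were higher. No member had a limma adjusted p under 0.05, and neither did any probe set of the array, 0%. At an unadjusted p under 0.05, 10 of the 44 members (22.7%) were higher and none lower, where the background was 2.39% higher and 4.36% lower. Among the 842 other bright probe sets 83 (9.86%) were higher at that p, 726 had a positive difference and the median was 0.10. The 10 members were Cyc1, Uqcrq and Uqcr11 of complex III, Cox8a, Cox6a1 and Cox7a1 of complex IV, and Atp5d, Atp5g1, Atp5l and Atp5mpl of ATP synthase. None of the 44 members separated the 2 groups without overlap, where 0.0866% of all probe sets did.

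Cyc1 encodes cytochrome c1, the heme protein of complex III that hands electrons to cytochrome c. Its signal had a lowest value of 10131, a median of 10758 and a highest of 14731 in treated controls, against 8065, 9899 and 10465 in untreated controls. In 6 of 7 treated controls the signal lay above every untreated control. The log2 difference was 0.27 ± 0.10 (SE, n = 7 per group, limma adjusted p = 0.698). Uqcrq, the ubiquinone-binding small subunit, stood at 0.24 ± 0.10 and Uqcr11, another small subunit, at 0.26 ± 0.10. The other 6 genes of complex III, among them the core proteins Uqcrc1 and Uqcrc2 and the iron-sulfur protein Uqcrfs1, also had positive differences, and the lowest of the 9 was 0.14.

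Cox8a, the widely expressed isoform of the smallest complex IV subunit, had the smallest p among the members. Its signal ran from 3177 with a median of 3568 to 4341 in treated controls, against 2272, 2745 and 3806 in untreated controls. Only 2 of the 7 treated arrays lay above every untreated one. Its log2 difference was 0.34 ± 0.11 (limma adjusted p = 0.698), and a second bright probe set of Cox8a gave 0.26. Cox6a1, the widely expressed isoform of subunit VIa, ran from 4827 with a median of 6003 to 8093 in treated controls, against 4241, 5006 and 5244 in untreated controls. There 6 of 7 treated arrays lay above every untreated one, and the difference was 0.32 ± 0.11 (limma adjusted p = 0.698). The second bright probe set of Cox6a1, with a mean signal of 2793, gave 0.19 and was not at an unadjusted p under 0.05. Cox7a1, the heart and muscle isoform of subunit VIIa, ran from 7782 with a median of 9813 to 12485 in treated controls, against 7301, 8406 and 9812 in untreated controls, a difference of 0.23 ± 0.11. The 3 complex IV genes with a negative difference were Cox7b2, Cox6b2 and Cox8c, all of them among the dim members. Cox7b2 stood at -0.37 ± 0.20.

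In ATP synthase all 17 genes had positive differences, from 0.10 to 0.21. Atp5l, the g subunit of the membrane part, ran from 8491 with a median of 8983 to 12554 in treated controls, against 6959, 8401 and 9242 in untreated controls. Its difference was 0.21 ± 0.09 (limma adjusted p = 0.734). Atp5g1, one of 3 genes for the proton-carrying c subunit, ran from 10620 with a median of 11504 to 13756 in treated controls, against 8424, 10620 and 12330 in untreated controls, with a difference of 0.21 ± 0.10. The catalytic beta subunit Atp5b stood at 0.12 ± 0.10 and Cycs at 0.11 ± 0.10, where its other bright probe sets gave 0.17 and 0.18.

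**Figure D3:**
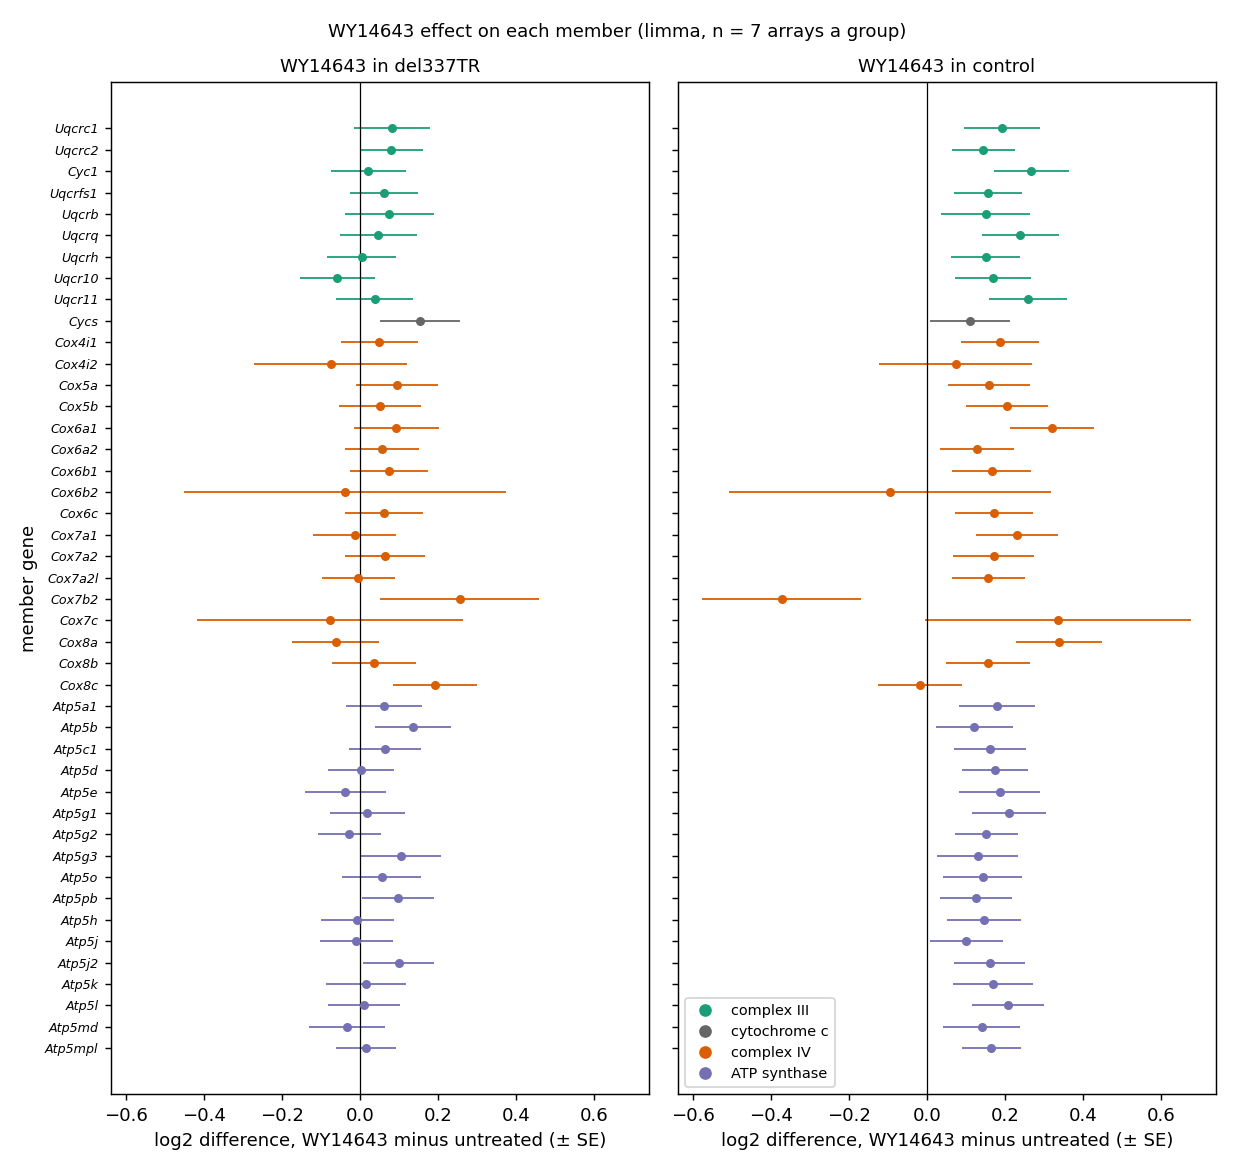
Log2 difference of WY14643 minus untreated for each of the 44 members (points, with limma's SE as bars), in del337TR on the left and in controls on the right, coloured by complex. In controls 41 of 44 points lie right of 0, with a median of 0.16, and in del337TR 32 of 44 do, with a median of 0.05. Under quantile normalization these medians are 0.03 in controls and -0.03 in del337TR.

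This shift in controls depended on scaling and on single arrays. Under quantile normalization, which gives every array the same spread of values, the median was 0.03 with 35 of 44 members higher and 2 at an unadjusted p under 0.05, while centring each array on its median gave 0.22 and 18. Without replicate 2 or 6 of untreated controls, or replicate 7 of treated controls, 4 members were at that p, without replicate 4 of treated controls 6, and without replicate 3 of untreated controls 23. Replicate 7 of treated controls also had an actin 3' to 5' signal ratio, a measure of RNA integrity and labelling, of 1.82, against 1.19 to 1.43 on the other 6 treated controls, and the highest bright-member mean of its group, 13.72 against 13.36 to 13.51. The actin ratio averaged 1.39 ± 0.21 in treated controls and 1.25 ± 0.12 in untreated controls (SD, n = 7 each). The Gapdh 3' to 5' ratio averaged 0.81 ± 0.01 in each of these groups (SD, n = 7 each). On replicate 7 of treated controls it was 0.825, the highest of its group, where untreated controls ran from 0.799 to 0.826. The summed signal of the 6 ventricular markers had a range of 79742 to 104474 in treated controls, against 67092 to 92291 in untreated controls, and the 6 genes had log2 differences of 0.15 to 0.22. The part of these in the shift of the respiratory genes was not tested.

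In del337TR animals WY14643 went with no called change. The median over the members was 0.05 with 32 of 44 (72.7%) higher, against 0.02 over all probe sets, of which 53.1% were higher. Over the 842 other bright ones it was 0.03, with 591 (70.2%) higher. The members' median turned to -0.03 under quantile normalization, where 13 of 44 were higher, and to -0.01 without replicate 4 of treated del337TR. No member had a limma adjusted p under 0.05, where 0% of all probe sets did. None had an unadjusted p under 0.05, where the background was 2.95% higher and 2.83% lower. Without replicate 1 of untreated del337TR, or replicate 1 or 2 of treated del337TR, 1 member did. A dimmer Atp5a1 probe set that did not stand for the gene, with a mean signal of 230, gave 0.42 at that p. The brighter Atp5a1 probe sets gave 0.06 and 0.04. Complex III had a median of 0.05, complex IV one of 0.05 and ATP synthase one of 0.02. No member separated the groups without overlap, where 0.0733% of probe sets did.

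The smallest p in this comparison belonged to Cox8c. Its signal ran from 435 with a median of 518 to 602 in treated del337TR, against 378, 434 and 598 in untreated del337TR. The difference was 0.19 ± 0.11, while its second probe set gave -0.51. Atp5b ran from 12137 with a median of 14587 to 18616 in treated del337TR, against 12607, 13166 and 16033 in untreated del337TR, at 0.14 ± 0.10. Uqcrc2 ran from 9443 with a median of 10432 to 13187 in treated del337TR, against 9254, 9769 and 11051 in untreated del337TR, at 0.08 ± 0.08. In all 3 genes the groups overlapped. Cyc1, Cox8a, Cox6a1 and Cox7a1 stood at 0.02 ± 0.10, -0.06 ± 0.11, 0.09 ± 0.11 and -0.01 ± 0.11 in this comparison. The adipocyte markers Adipoq, Retn and Cidec stood at -1.30, -1.08 and -2.09, each at an unadjusted p under 0.05, and Lep at 0.04. Also at that p were Tcf21 of fibroblasts at -0.45, Vwf of endothelium at -0.57 and Tagln of smooth muscle at -0.75. Of the other fibroblast markers Col1a1 stood at 0.23 and Dcn at 0.04, but Pdgfra at -0.43, Lum at -0.08 and Col1a2 at -0.0007. Of the other endothelial markers Cdh5 stood at 0.26 and Pecam1 at 0.05, but Kdr at -0.08 and Tek at -0.10. Myh11, Acta2 and Cnn1 of smooth muscle stood at -0.27, -0.21 and -0.78. What part these cell types had in the members' values was not tested.

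The difference between the WY14643 effects, del337TR minus control, was tested directly. Its median over the members was -0.13, with 5 of 44 above 0 and 39 below, against 0.04 over all probe sets, of which 55.6% were above 0, and -0.07 over the other bright ones. No member had a limma adjusted p under 0.05, where 0% of probe sets did. At an unadjusted p under 0.05, Cox7b2 was higher and Cox8a lower among the chosen probe sets, 1 of 44 members each. The background was 3.26% higher and 1.65% lower, shares near 1 of 44. Probe sets that did not stand for the gene gave -1.02 for Cox8c (mean signal 123) and 0.47 for Atp5a1 (230), also at that p. The chosen probe sets of these genes gave 0.21 and -0.12. Cox8a had a difference of effects of -0.40 ± 0.16 (limma adjusted p = 0.956), and its second bright probe set gave -0.32. For the dim Cox7b2 the value was 0.63 ± 0.29 (limma adjusted p = 0.956). Without replicate 4 of treated del337TR 6 members were at that p, while 1 was without replicate 2 or 6 of treated del337TR, 1, 6 or 7 of untreated del337TR, 1, 4 or 6 of treated controls, or 1, 3, 4 or 6 of untreated controls. Cyc1 stood at -0.25 ± 0.14 and Atp5g2, another c subunit gene, at -0.18 ± 0.11. Adipoq, Retn and Cidec stood at -1.87, -1.22 and -2.16 in this difference, each at an unadjusted p under 0.05, and Lep at 0.68. Whether these had a part in the members' values was not tested. The effect of WY14643 on the members was therefore not shown to differ between the strains, and the comparisons share the same 28 arrays.

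Without WY14643 the mutant receptor went with little difference in the chain. The median over the members was 0.05 in del337TR minus control, with 39 of 44 higher, against -0.01 over all probe sets, of which 47.8% were higher, and 0.05 over the other bright ones. It was 0.00 under quantile normalization, with 23 of 44 higher. No member had a limma adjusted p under 0.05, where 0.00222% of probe sets did. At an unadjusted p under 0.05 only Cox6b2 was found among the chosen probe sets, lower in del337TR, where the background was 1.66% higher and 2.35% lower. A dim Cycs probe set that did not stand for the gene, with a mean signal of 81.4, gave 0.53, also at that p. The chosen Cycs probe set gave 0.01. No member separated the groups without overlap, where 0.0688% of probe sets did. Among the adipocyte markers Adipoq stood at 0.97 in this comparison, at an unadjusted p under 0.05. Retn, Cidec and Lep stood at 0.49, 0.53 and 0.21, none at that p. The atrial markers Myl4, Myl7 and Sln stood at 1.77, 2.67 and 3.02, none at an unadjusted p under 0.05. Of the fibroblast markers Lum and Tcf21 stood at 0.34 and 0.37, each at an unadjusted p under 0.05. Pdgfra stood at 0.43, Dcn and Col1a2 each at 0.11, and Col1a1 at -0.22. The part of these cell types in the members' values was not tested.

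Values of the bright members lay close in the 2 untreated groups. Uqcr10, a small complex III subunit, ran from 5422 with a median of 6330 to 6633 in del337TR, against 4753, 5931 and 6602 in controls, a difference of 0.09 ± 0.10. Atp5l ran from 7832 with a median of 8608 to 9414 in del337TR, against 6959, 8401 and 9242 in controls, at 0.10 ± 0.09. The standard errors of the members ran from 0.08 to 0.41 with a median of 0.10.

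Under WY14643 most members were lower in del337TR than in controls, by little. The median was -0.07 with 6 of 44 higher and 38 lower, against 0.04 over all probe sets, of which 55.6% were higher, and -0.02 over the other bright ones. No member had a limma adjusted p under 0.05, where 0% of probe sets did. At an unadjusted p under 0.05 there were 3 lower members among the chosen probe sets, Cox8a, Cox7a1 and Cox6b2, and none higher. The background was 3.61% lower and 5.25% higher. Probe sets that did not stand for the gene gave -0.59 for Cox8c, -0.21 for Cox8a and -0.19 for Cox7a2l, also at that p. The chosen probe sets of Cox8c and Cox7a2l gave 0.07 and -0.18. No member separated the groups without overlap, where 0.107% of probe sets did. This comparison shares the treated controls with the comparison of WY14643 in controls, and the values of both are given side by side without counting either as support for the other.

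Cox8a ran from 2803 with a median of 2955 to 3487 in treated del337TR, against 3177, 3568 and 4341 in treated controls, a difference of -0.26 ± 0.11 (limma adjusted p = 0.506). Its mean over 7 arrays was 3050 ± 248 in treated del337TR, 3202 ± 408 in untreated del337TR, 3651 ± 361 in treated controls and 2925 ± 579 in untreated controls (SD), with treated controls highest and all groups overlapping. Cox7a1 ran from 7457 with a median of 8245 to 10927 in treated del337TR, against 7782, 9813 and 12485 in treated controls, at -0.23 ± 0.11 (limma adjusted p = 0.547). Cyc1 ran from 9323 with a median of 10014 to 11814 in treated del337TR, against 10131, 10758 and 14731 in treated controls, at -0.16 ± 0.10. Atp5g1 ran from 9428 with a median of 10568 to 12764 in treated del337TR, against 10620, 11504 and 13756 in treated controls, at -0.16 ± 0.10. The actin ratio averaged 1.23 ± 0.09 in treated del337TR and 1.39 ± 0.21 in treated controls (SD, n = 7 each). For Gapdh the ratio averaged 0.80 ± 0.02 and 0.81 ± 0.01 in the same order (SD, n = 7 each). Xist had a higher signal than Eif2s3y on 1 of 7 treated del337TR and 3 of 7 treated control arrays. The adipocyte markers Adipoq, Retn and Cidec stood at -0.90, -0.73 and -1.63 here, each at an unadjusted p under 0.05, and Lep at 0.90. The endothelial marker Cdh5 stood at 0.46 and the ventricular marker Ryr2 at -0.21, each also at that p. The other endothelial markers ran from -0.20 to 0.13 and the other ventricular ones from -0.09 to 0.00. What part the actin ratio, sex or RNA of these cell types had in the members' differences was not tested. Without replicate 7 of treated controls, or replicate 1 or 5 of treated del337TR, 1 member was at an unadjusted p under 0.05, and without replicate 4 of treated del337TR there were 7.

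**Figure D4:**
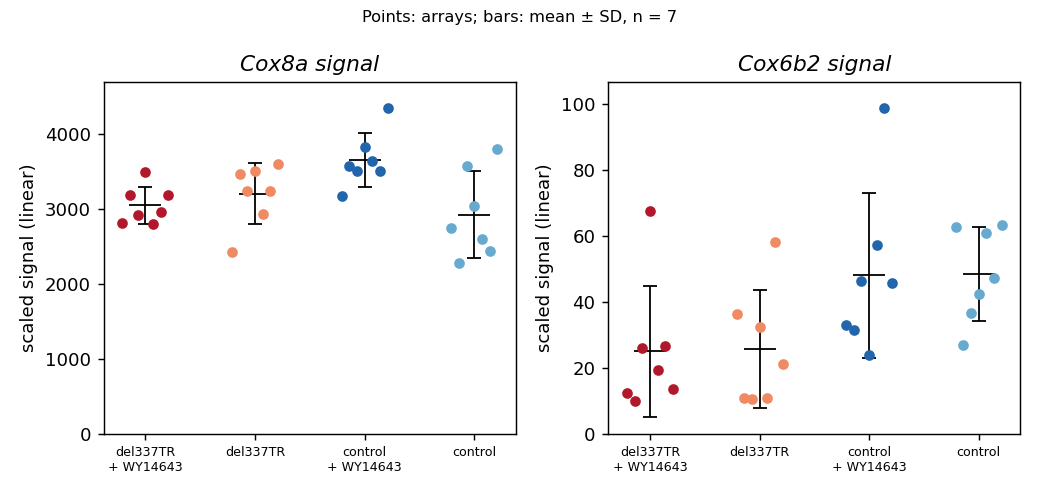
Linear scaled signals of Cox8a and Cox6b2 on each array, by group, on axes that start at 0. Points are arrays and bars are the mean ± SD of 7 arrays. Cox8a averages 3651 in treated controls and between 2925 and 3202 in the other groups, and Cox6b2 averages 25.0 and 25.8 in the del337TR groups and 48.1 and 48.5 in the control groups, with overlap in each case.

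The 3 complexes had similar medians. For WY14643 in controls their medians were 0.17 in complex III, 0.17 in complex IV and 0.16 in ATP synthase. For strain under WY14643 they were -0.09, -0.06 and -0.08 in the same order. For strain without WY14643 they were 0.06, 0.05 and 0.06. For the difference of effects they were -0.15, -0.12 and -0.15. All 9 complex III genes were higher in treated than in untreated controls, and all 9 were lower in treated del337TR than in treated controls. Of the 17 ATP synthase genes 17 were higher in the first of these comparisons and 14 lower in the second. Of the 17 complex IV genes 14 were higher and 15 lower. Differences between the complexes were not tested.

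Isoform balance was examined as the log2 ratio of the 2 signals of a pair within each array, which removes a factor that both signals share. In pairs of unlike brightness a movement of bright probe sets alone stays in the ratio. Such pairs are Cox4i2 with Cox4i1 and Cox6b2 with Cox6b1. Less far apart, but also unlike, are Cox8b (mean signal 12595) with Cox8a (3207) and Cox6a2 (13759) with Cox6a1 (5674). The size of such a ratio depends on the probes, so only its differences between groups are compared. For 5 pairs and 4 comparisons 20 two-sided exact permutation tests over arrays were made, each with a smallest possible p of 0.000583, and none had an adjusted p under 0.05. Cox8b over Cox8a was 2.06 ± 0.19 in treated del337TR, 1.96 ± 0.15 in untreated del337TR, 1.86 ± 0.06 in treated controls and 2.04 ± 0.17 in untreated controls (SD, n = 7 each). WY14643 in controls went with a ratio difference of -0.18 ± 0.07 (SE, exact permutation p = 0.0268, adjusted p = 0.134), and strain under WY14643 with one of 0.20 ± 0.08 (exact permutation p = 0.0134, adjusted p = 0.134). Neither was called, and the treated controls, which both share, had the lowest mean. Without replicate 7 of untreated controls the first was called at -0.23, and without replicate 1 of treated del337TR the second was called at 0.24. With the second bright probe set of Cox8a they were -0.11 ± 0.07 and 0.16 ± 0.09. Exchanging probe sets in this way was an alternative added after the data were seen. In del337TR the WY14643 difference was 0.10 ± 0.09 (exact permutation p = 0.303).

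Cox8b itself, the heart and muscle isoform, ran from 10036 with a median of 11795 to 18181 in treated del337TR, and from 10163 with a median of 12504 to 14058 in untreated del337TR. It ran from 12225 with a median of 12925 to 15227 in treated controls, against 9973, 12619 and 13368 in untreated controls. The difference for WY14643 in controls was 0.16 ± 0.11, a value close to the median of the members.

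Cox6a2 over Cox6a1 was 1.24 ± 0.25 in treated del337TR, 1.28 ± 0.24 in untreated del337TR, 1.21 ± 0.22 in treated controls and 1.41 ± 0.11 in untreated controls (SD, n = 7 each). WY14643 in controls went with a difference of -0.19 ± 0.09 (exact permutation p = 0.0618, adjusted p = 0.206), and strain without WY14643 with one of -0.13 ± 0.10. The difference for WY14643 in controls rested on the probe set, since it was -0.07 ± 0.07 with the second bright probe set of Cox6a1 and -0.43 ± 0.14 with that of Cox6a2 (exact permutation adjusted p = 0.107). Cox6a2, the heart and muscle isoform of subunit VIa, ran from 12825 with a median of 14316 to 16112 in treated controls, against 11454, 13415 and 15688 in untreated controls, at 0.13 ± 0.09, while a second, dimmer Cox6a2 probe set gave -0.11. Cox7a1 over Cox7a2 was -0.71 ± 0.13 in treated del337TR, -0.63 ± 0.10 in untreated del337TR, -0.54 ± 0.17 in treated controls and -0.60 ± 0.09 in untreated controls (SD, n = 7 each). Strain under WY14643 went with a difference of -0.17 ± 0.08 (exact permutation p = 0.0606, adjusted p = 0.206), and WY14643 in controls with one of 0.06 ± 0.07. The first of these also rested on the probe set, and was -0.06 ± 0.05 with the second bright probe set of Cox7a2. Cox4i2 over Cox4i1 had differences between -0.13 and -0.09, none of them called.

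**Figure D5:**
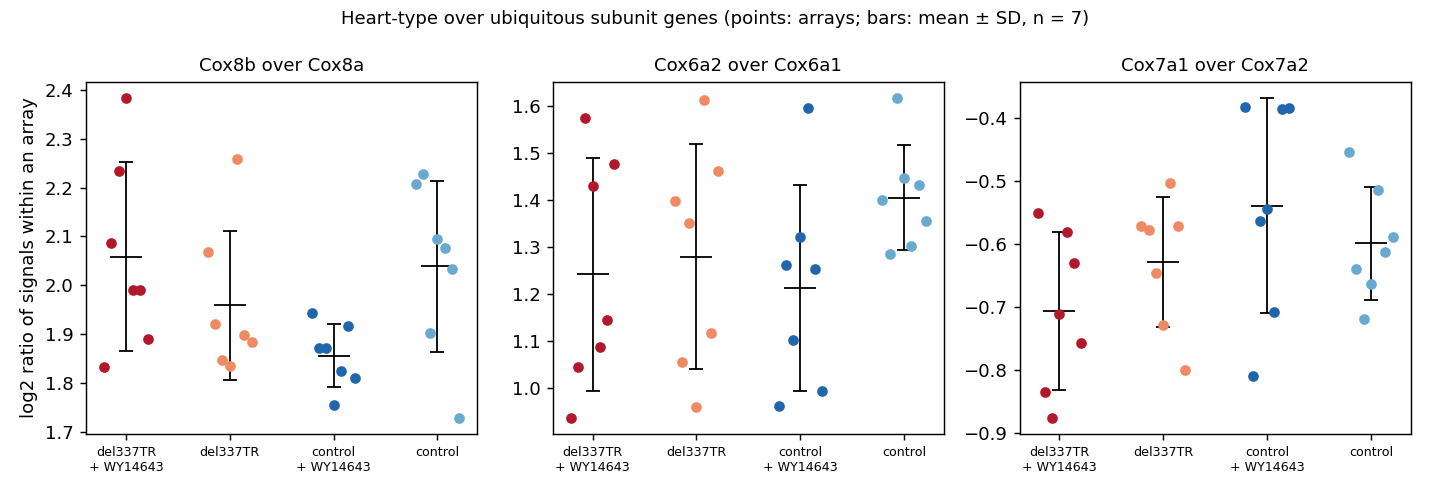
Log2 ratio of the heart-type to the widely expressed isoform within each array for Cox8b over Cox8a, Cox6a2 over Cox6a1 and Cox7a1 over Cox7a2, by group. Points are arrays and bars are the mean ± SD of 7 arrays. Treated controls have the lowest mean for Cox8b over Cox8a, 1.86, and the highest for Cox7a1 over Cox7a2, -0.54, and all groups overlap.

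Cox6b2, known as the testis isoform of subunit VIb, had the largest differences between the strains among the members, at dim signals. It ran from 10 with a median of 19.2 to 67.5 in treated del337TR and from 10.5 with a median of 21.2 to 58.3 in untreated del337TR. It ran from 24 with a median of 45.6 to 98.7 in treated controls, and from 26.9 with a median of 47.4 to 63.2 in untreated controls. With and without WY14643 4 of the 7 del337TR arrays lay below every control array of the same treatment, and the groups overlapped. The strain difference was -1.15 ± 0.41 without WY14643 (limma adjusted p = 0.999) and -1.09 ± 0.41 under WY14643 (limma adjusted p = 0.450). WY14643 itself went with -0.04 ± 0.41 in del337TR and -0.10 ± 0.41 in controls. Cox6b2 over Cox6b1, its widely expressed partner, differed by -1.18 ± 0.43 without WY14643 (exact permutation p = 0.0251, adjusted p = 0.134) and by -1.04 ± 0.38 under WY14643 (exact permutation p = 0.0175, adjusted p = 0.134), which without replicate 4 of treated del337TR was called at -1.26. The probe set lay at the 34th percentile of brightness, with a mean signal of 36.9 where the median of an array's probe sets was 60 to 77.8. With both treatments averaged, a comparison added after the values had been seen, Cox6b2 stood at -1.12 ± 0.29 in 14 del337TR against 14 control arrays (limma adjusted p = 0.537). On 8 of the 14 del337TR arrays it lay below all 14 controls. No probe set was called in that comparison (0%), where 7.66% had an unadjusted p under 0.05, and Cox6b2 ranked 55 of 45037 by p.

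The other complexes of the chain were read from lists of their genes. All 36 measured genes of complex I, which feeds electrons from NADH into the chain, were higher in treated than in untreated controls, with a median of 0.15 and 9 at an unadjusted p under 0.05. Over all probe sets 44.6% were higher and 2.39% higher at that p, and of the 842 other bright ones 726 and 83 (9.86%). Only the members were taken out of these 842, so complex I probe sets of that brightness are among them. Under WY14643 33 of the 36 were lower in del337TR than in controls, with a median of -0.09 and 2 at that p, where 3.61% of all probe sets were lower at that p. The 4 complex II genes were all higher in treated controls, with a median of 0.13. Of the assembly factors, which build the complexes but are no part of them, 20 of 22 were measured, with 13 higher in treated controls, 2 of them at an unadjusted p under 0.05, and a median of 0.05. Atpaf2, an ATP synthase assembly factor, stood at 0.47 ± 0.15 (limma adjusted p = 0.698), and Uqcc2, a complex III assembly factor, at 0.32 ± 0.13. Under WY14643 Uqcc2 stood at -0.39 ± 0.13 in del337TR minus control (limma adjusted p = 0.428). The 12 regulators had 5 higher in treated controls and a median of -0.03, with 1 higher and 1 lower at an unadjusted p under 0.05. Ppargc1a, the coactivator that promotes mitochondrial biogenesis, stood at -0.49 ± 0.23 for WY14643 in controls and at 0.55 ± 0.23 for strain under WY14643. Polrmt, the mitochondrial RNA polymerase, stood at 0.20 ± 0.09 and -0.22 ± 0.09 in these comparisons. No gene of these 4 lists had a limma adjusted p under 0.05 in any of the 5 comparisons.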

How the data were processed

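Per the labels' protocols, biotin-labelled total RNA of 28 frozen mouse hearts was hybridised to 1-colour arrays. The authors deposited linear intensity values from 0 to 26183.2. RMA is named in the submitters' processing notes, but the deposited intensity values did not have its form: after trimming 2% at each end, every array had a mean of 250.0, so they were used as globally scaled signals. Values were floored at 0.1 (3 values at 0) and log2 transformed. Of 45101 probe sets the 64 AFFX controls were left out. A mean per group was fitted over all 28 arrays in limma 3.58.1 (R 4.3.3) by lmFit and eBayes, with 24 residual degrees of freedom and no covariate. Two-sided p values were adjusted in each comparison by Benjamini-Hochberg across 45037 probe sets, with a threshold of 0.05. Genes were named by probe sets with 1 symbol (34945), and those with several (932) or none (9160) named none.

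Isoform ratios were tested with exact two-sided permutation of the arrays (3432 regroupings). The members, the other gene lists and the marker lists were chosen with earlier results of these data known. Values per group are given for the isoforms and for the member with the smallest p of each complex in each comparison, other members by ranges and counts, and genes outside the members were named as up to 2 of each list with the smallest p. The strain average of Cox6b2 was added after its values were seen. Simulated data were used to test the fit. The number of arrays, 7 a group, limits the precision. Alternatives were an offset of 16 before log2, a filter at the 40th percentile, trend and robust eBayes, quantile normalization, median centring, array weights, the replicate number as a block, a sex covariate, the mean of a gene's probe sets, only the groups compared, and each array left out. Added after the data were seen was a fit without 1 array per group, the one that correlated least with the others, and isoform ratios with a gene's second probe set where its mean signal was over 1000.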

Additional observations from a re-analysis of the deposited data

Results flagged for a closer look

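The highest and the lowest array of each group were compared with the other 6 for each member, by the gap to the nearest array as a share of the group's range (Dixon's critical value 0.568). Of 176 groups 16 had such a far array, where chance gives about 1 in 20, or 8.8. The 176 are not independent, because the members share arrays and moved together, so 16 is not read as an excess over 8.8.

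In 10 of the 16 the far array was replicate 7 of treated controls, which had the highest signal of its group. These were Uqcrc1 at 15122.9, Uqcrc2 at 12024.1, Uqcrfs1 at 11234.7 and Uqcr11 at 13981.2 in complex III, Cox4i1 at 18602.5, Cox5b at 16668.4 and Cox8b at 15227.1 in complex IV, and Atp5d at 12527.5, Atp5e at 9326.7 and Atp5l at 12554.4 in ATP synthase. On that array the bright members stood 0.92 above the other bright probe sets on the log2 scale, against 0.71 to 0.84 on the other treated controls. Its actin ratio was 1.82 and its Gapdh ratio 0.825, where untreated controls ran from 0.799 to 0.826 for Gapdh. The part of that array's RNA quality in these signals was not tested.

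Replicate 4 of treated del337TR was far above its group for Cox7a1 (10926.6) and Atp5g2 (8679.1). Replicate 5 of treated del337TR read 8.4 for Cox7c, below the rest of its group. In untreated del337TR, replicate 1 was low for Uqcrh (8232.6), the hinge protein of complex III, and for Atp5g2 (6118.1), and replicate 5 was high for Cycs (14794.6).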

How the results depend on the processing

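No member had a limma adjusted p under 0.05 in any comparison under any alternative run. For del337TR minus control without WY14643 the median over members ran from 0.02 to 0.09 without 1 array, for WY14643 in controls from 0.13 to 0.20, for WY14643 in del337TR from -0.01 (without replicate 4 of treated del337TR) to 0.08, for strain under WY14643 from -0.13 to -0.03, and for the difference of effects from -0.19 to -0.09. Members at an unadjusted p under 0.05 for WY14643 in controls numbered 10 as reported, 20 with trend and robust settings, 5 with only the 2 groups, 13 with array weights and 7 with the sex covariate. Taking the mean of a gene's probe sets turned Uqcr10 to -0.049 for strain without WY14643 and Cox8c to -0.16 for WY14643 in del337TR. For the isoform ratios without 1 array, Cox8b over Cox8a ran from -0.23 to -0.15 with treatment of controls and from 0.15 to 0.24 with strain under WY14643. Cox6b2 over Cox6b1 ran from -1.26 to -0.85 for strain under WY14643. Over all 19 alternatives, arrays left out among them, the ranges were wider. They were -0.26 to -0.06, 0.14 to 0.24 and -1.26 to -0.62 in the same order. These ratios had an adjusted p under 0.05 only without replicate 7 of untreated controls, replicate 1 of treated del337TR and replicate 4 of treated del337TR, 1 ratio each in the order given. With the replicate number as a block the medians stayed at 0.16 (WY14643 in controls) and -0.07 (strain under treatment), and 9 members were at an unadjusted p under 0.05 in controls. Deviations of arrays with the same number correlated weakly, from -0.07 to 0.19 over 28 pairs, with a median of 0.04 and 5 over 0.1. The labels do not say whether arrays of the same number belonged together, and this was not tested. The array least like its group was replicate 7 in all 4 groups, and without these 4 arrays 14 of 44 members were higher for strain under WY14643, where 6 were as reported, and none was at an unadjusted p under 0.05.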

Other observations

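For Cox6b2, the strain difference averaged over both treatments ran from -1.26 to -1.02 on the log2 scale without 1 array (limma adjusted p between 0.316 and 0.699), and from -1.16 to -0.69 over 8 other settings (limma adjusted p between 0.359 and 0.860).

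Cycs had 4 probe sets. For WY14643 in controls the 3 bright ones gave log2 differences of 0.11, 0.17 and 0.18, and the dim one, with a mean signal of 81.4, gave 0.69.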
